A study of Danio rerio with 4 samples.

Results

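The genes rsph9, rsph14, spag6 and drc3 encode parts of the machinery that couples the microtubules of a beating cilium, and each was represented by 1 probe set on an Affymetrix zebrafish (Danio rerio) array. They were found as the probe sets whose single gene symbol in the platform's annotation is one of these 4 names, which gave 4 of the 15502 probe sets that are not array controls. The rule itself uses names only, but the 4 genes were picked with their morphant against control differences known. Those differences are therefore given as a description, and where calls of these 4 genes are counted nothing is read from them.

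RNA came from EGFP-positive cells of 3-day embryos, sorted from a dissected block of tissue that holds the kidney, and 20000 sorted cells were used per extraction. The sample titles name the material as multiciliated cells. A morpholino against the microRNA miR-34b had been injected for 2 arrays (morphants) and a control morpholino for the other 2 (controls), which the series describes as 2 independent biological sets. All 4 samples shared the AB background and the Tg(cmyb:EGFP) transgene, in which the promoter of cmyb (myb) drives the reporter, so the sort selected cells by promoter activity and not by the presence of cilia. A morpholino is an injected antisense oligomer, so the perturbation was carried by the whole embryo. The annotation names 0 probe sets for a mir34 gene, and the targeted RNA could not be followed.

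Motile cilia are built on an axoneme, a ring of outer microtubule doublets around a central pair. Dynein arms slide neighbouring doublets against each other, and the sliding is turned into a bend by 2 kinds of connection. Radial spokes reach inward from each doublet to the projections of the central pair and carry mechanical signals to the dyneins. The nexin-dynein regulatory complex, or nexin link, ties each doublet to its neighbour and regulates the arms. Mutations of spoke, central pair and nexin link genes cause abnormal beating in human primary ciliary dyskinesia. In the zebrafish pronephros, multiciliated cells of the tubule use such cilia to move fluid.

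The sorted cells carried transcripts of several cell types. Of 14 multiciliated cell markers 7 had a probe set (foxn4, e2f5, rfx2, myb, tekt1, efhc2 and enkur), and the sum of their linear signals was 18461 to 19377 in the morphants and 7523 to 8355 in the controls. Of these 7, 5 rose in limma's test, enkur did not pass (1.08, adjusted p = 0.0523), and myb did not pass either (−0.42, adjusted p = 0.349). The list shares tekt1, efhc2 and enkur with the axoneme lists below, and for foxj1a, foxj1b, gmnc, mcidas and ccno no probe set was matched here. Transcripts of 10 myeloid markers summed to 77248 to 81880 in the morphants and 76852 to 82512 in the controls. Their median log2 difference was 0.01 over the 9 tested, of which 6 lay above 0. The sums of 10 skeletal muscle markers were 67983 to 87853 in the morphants and 83137 to 109471 in the controls. Of these 10, all tested, 0 lay above 0, and their median log2 difference was −0.61. The sums of 8 connective tissue and notochord markers were 10016 and 12366 in the morphants and 16555 and 19030 in the controls, with 0 of the 7 tested above 0 and a median log2 difference of −0.41. Those of 11 pronephric tubule markers were 6537 and 6149 in the morphants and 5288 and 5592 in the controls, with a median of 0.34 over the 8 tested, of which 1, the chloride channel gene clcnk, rose. Those of 9 neural markers were 3844 and 3506 in the morphants and 2447 and 3824 in the controls, and 8 of 9 lay above 0 with a median of 0.71. In limma's test 0 of the myeloid, muscle, connective and neural markers passed. Medians were −0.36 for erythroid, −0.05 for blood stem and progenitor and −0.16 for epidermal markers. They were −0.39 for endothelial (1 gene tested) and −0.32 for endoderm markers, of which 1, cpb1, rose. Erythroid markers summed to 6875 and 7766 in the morphants and 14904 and 6290 in the controls. Endoderm markers summed to 7252 and 7294 in the morphants and 7454 and 15437 in the controls. The 2 control arrays were thus far apart in both of these lists. No marker of any list was at 0 on all 4 arrays. However, the pronephric markers pax8 and slc12a3 and the blood stem and progenitor marker itga2b stayed at background. On each of the 4 arrays they did not exceed the brightest of the 17 controls for tag sequences. The pronephric sums above include pax8 and slc12a3. Poly-A controls, which are spiked into RNA before amplification, had mean log2 signals of 9.53 and 8.73 on the morphant arrays and 9.93 and 9.92 on the control arrays. For acta1, the 3 prime minus the 5 prime control probe set was 2.38 and 3.39 (log2) on the morphant arrays and 2.54 and 2.47 on the control arrays. For GAPDH it was 0.36 and 0.94 on the morphant arrays and 1.02 and 0.88 on the control arrays. The part of these markers and array controls in the differences below was not tested.

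All 4 transcripts were more abundant in the morphants, by 3.13- to 4.91-fold, and no morphant array overlapped a control array for any of them. The signals are the authors' log2 values per probe set, scaled by them to a common level on each array. In bulk RNA, a larger share of ciliated cells and more transcript per ciliated cell cannot be told apart. Across the 11626 probe sets tested, the 2 morphant arrays lay wholly above the controls for 25.1% and wholly below for 24.7%, and limma called 2.49% higher and 0.120% lower at a Benjamini-Hochberg adjusted p under 0.05. The 4 genes were among those wholly above and among those called higher, and since they were chosen on this contrast nothing is read from it. The median log2 difference of all probe sets tested was −0.017.

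The radial spoke is represented by rsph9 and rsph14. rsph9 (Entrez gene 558005) encodes a subunit of the spoke head, the end that faces the central pair. Its log2 signal was 11.00 and 11.18 on the morphant arrays and 9.43 and 9.39 on the control arrays. On the linear scale these were 2054 and 2316 in the morphants against 688.9 and 669.0 in the controls. The dimmer morphant array was 2.98-fold above the brighter control array. The difference of the means was 1.68 ± 0.17 (log2, SE from the fit over the whole table, n = 2 arrays per group), or 3.21-fold.

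rsph14 (Entrez gene 553388, with the older name rtdr1 among its RefSeq synonyms) encodes a radial spoke protein with armadillo-type repeats. Its log2 signal was 9.72 and 9.91 in the morphants and 7.72 and 7.33 in the controls. The linear signals were 843.2 and 964.1 in the morphants and 210.2 and 160.7 in the controls, so the groups lay apart by at least 4.01-fold. The difference was 2.29 ± 0.21 (log2, SE), or 4.91-fold, the largest of the 4 genes. Its 2 control arrays also differed most, by 0.39 on the log2 scale, against 0.042 to 0.12 for the other 3 genes.

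The central pair is represented by spag6 (Entrez gene 431757), an armadillo-repeat protein whose counterpart in the alga Chlamydomonas, PF16, is needed for a stable central pair. Its log2 signal was 10.54 and 10.65 in the morphants and 8.99 and 8.91 in the controls. These are linear signals of 1493 and 1610 in the morphants against 510.0 and 482.0 in the controls, with no overlap. The difference was 1.64 ± 0.16 (log2, SE), or 3.13-fold, the smallest of the 4.

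The nexin link is represented by drc3 (Entrez gene 777619, with lrrc48 as an older name), a leucine-rich repeat subunit of the nexin-dynein regulatory complex. Its log2 signal was 11.37 and 11.52 in the morphants and 9.63 and 9.75 in the controls. The linear signals were 2650 and 2947 in the morphants and 791.6 and 862.1 in the controls. The dimmer morphant array was 3.07-fold above the brighter control array. The difference was 1.76 ± 0.17 (log2, SE), or 3.38-fold.

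**Figure D1:**
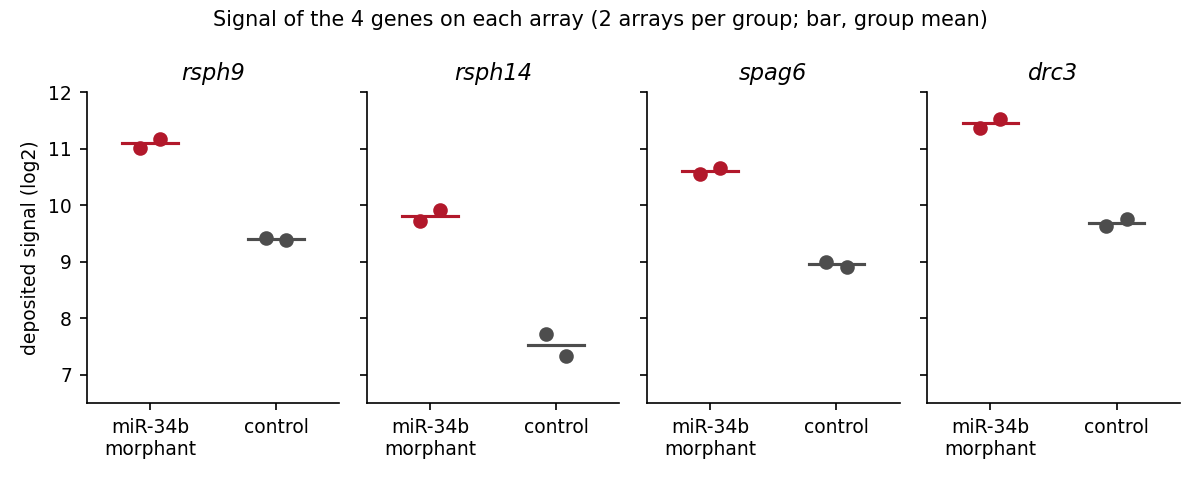
Deposited log2 signal of rsph9, rsph14, spag6 and drc3 on each of the 4 arrays, with miR-34b morphant arrays left of control arrays in each panel; points are single arrays and bars are group means (n = 2). In each panel both morphant points lie above both control points, and the control points of rsph14 are the most spread, at 7.72 and 7.33.

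The 4 genes varied little within a group compared with the gap between groups. They were chosen with that gap known, so this was likely in advance and nothing is read from it. The morphant arrays differed from each other by 0.11 to 0.19 on the log2 scale, and the lowest morphant signal was 2.93- to 4.01-fold above the highest control signal. Morphant replicate 2 was brighter than morphant replicate 1 for 4 of the 4 genes, while its poly-A controls were dimmer (8.73 against 9.53). Control replicate 1 was brighter than control replicate 2 for rsph9, rsph14 and spag6, and dimmer for drc3. The differences of rsph9, spag6 and drc3 lay between 1.64 and 1.76, a range smaller than the SE of any one of them. That of rsph14 exceeded the mean of the other 3 by 0.60, a distance that was not tested. Each of the 4 signals was above the 17 controls for tag sequences, the brightest of which reached 3.71 to 4.93 on the 4 arrays, so none of these folds is a bound against background.

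Among all 11626 probe sets tested, ordered from the largest morphant increase down, rsph14 stood at place 37, drc3 at 125, rsph9 at 150 and spag6 at 165. Thus 0.31% of the probe sets had a larger difference than rsph14 and 1.41% a larger one than spag6. High places were likely in advance, since the 4 genes were picked with these differences known, and the percentages only describe them. The mean level over the 4 arrays was above that of 58.1% of probe sets for rsph14, 75.9% for spag6, 82.1% for rsph9 and 86.1% for drc3. On this mean, which includes the morphant arrays where the 4 genes are higher, all 4 were thus brighter than the median probe set. Above that median the SD of the log2 differences was 0.45, and below it 0.57, as the plot of difference against level shows.

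**Figure D2:**
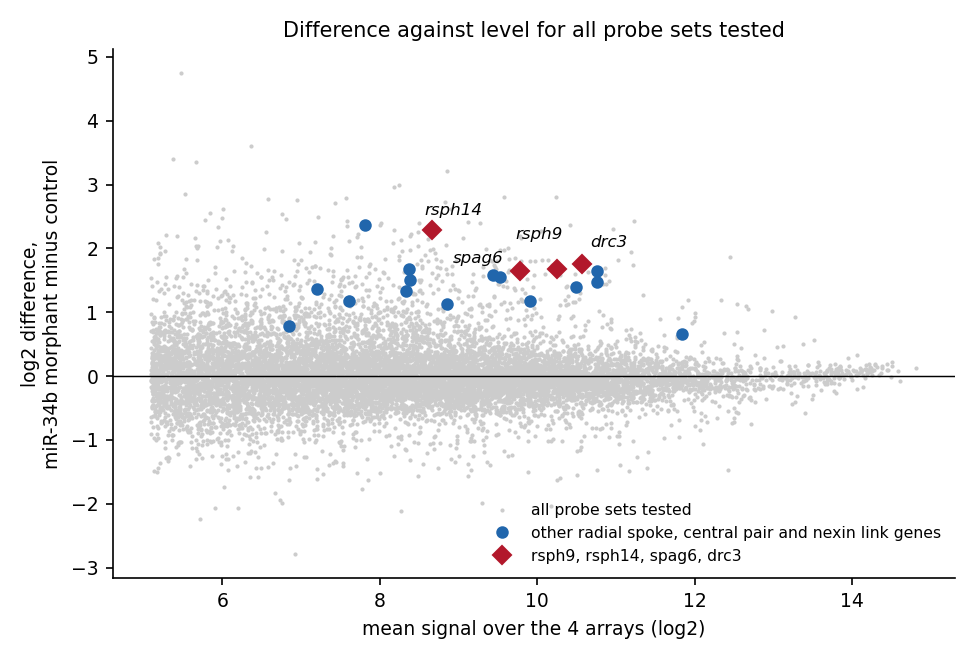
Log2 difference (miR-34b morphant minus control) against mean log2 signal over the 4 arrays for the 11626 probe sets tested (grey), with rsph9, rsph14, spag6 and drc3 as red diamonds and the other 15 radial spoke, central pair and nexin link genes as blue circles. All 19 marked genes lie above 0, and the grey cloud narrows toward bright probe sets.

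Most other listed genes of the same 3 structures that had a probe set were higher in the morphants too. A list of spoke, central pair and nexin link genes resolved to 50 RefSeq genes, of which 19 had a probe set, including the 4 above. Without those 4, 11 of 15 genes rose in limma's test (adjusted p under 0.05 over all probe sets tested), 0 fell and 4 did not pass. At unadjusted p under 0.05 the counts were 15 higher and 0 lower. The median log2 difference of the 15 was 1.39, or 2.62-fold, against −0.021 over the 7345 named genes tested. Over these named genes, each read from its brightest probe set, 2.71% were called higher and 0.150% lower. For 15 of the 15 genes the groups did not overlap and the morphants were higher, as they were for 24.9% of named genes. With the 4 genes included, 15 of 19 were past the threshold and the median was 1.51. The list was drawn up with earlier results of these data known and is no independent evidence of the direction.

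Among the spoke genes, 7 of the 8 others rose, with a median of 1.57. The largest change was that of cyb5d1, a cytochrome b5 domain protein linked to radial spokes in zebrafish. Its log2 signal was 8.98 and 9.02 in the morphants and 6.69 and 6.58 in the controls, a rise of 2.37 ± 0.16 (SE, adjusted p = 0.0153). Spoke head subunits rose too, rsph4a by 1.58 ± 0.21 (adjusted p = 0.0305) and rsph1 by 1.48 ± 0.22 (adjusted p = 0.0425). The signals of rsph4a were 10.01 and 10.44 in the morphants and 8.58 and 8.70 in the controls. Those of rsph1 were 11.42 and 11.57 in the morphants and 10.27 and 9.77 in the controls, so neither gene had overlapping groups.

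Of the other spoke genes, lrrc23, a leucine-rich repeat protein of the spoke head region, rose by 1.67 ± 0.21 (adjusted p = 0.0286). nme5, a nucleoside diphosphate kinase family member of the spoke, rose by 1.65 ± 0.19 (adjusted p = 0.0233). cfap91, a protein of the spoke base, rose by 1.56 ± 0.16 (adjusted p = 0.0183), with close replicates, 10.32 and 10.30 in the morphants and 8.74 and 8.77 in the controls. dydc2, a protein with a docking motif found in spoke proteins, rose by 1.39 ± 0.16 (adjusted p = 0.0239). ropn1l, a spoke protein with a docking domain of the kind that binds kinase anchors, had 1.13 ± 0.23 and did not pass (adjusted p = 0.0837).

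Of the other central pair genes, 3 of 5 rose, and their median was 1.18. cfap54, a projection protein, rose by 1.37 ± 0.17 (adjusted p = 0.0281) with signals of 7.93 and 7.85 in the morphants and 6.42 and 6.63 in the controls. spag17, the large projection protein that is named PF6 in Chlamydomonas, rose by 1.33 ± 0.18 (adjusted p = 0.0320), and its second probe set gave 1.52 (adjusted p = 0.0260). spef1, which bundles central pair microtubules, rose by 1.18 ± 0.16 (adjusted p = 0.0320), whereas its dimmer probe set had 0.61 ± 0.41 (adjusted p = 0.516) with overlapping groups, 6.35 and 5.51 in the morphants and 5.78 and 4.88 in the controls. The kinase gene stk36, which is needed for central pair assembly in mice, had 0.78 ± 0.16 (adjusted p = 0.0857). mycbp, a small protein of a central pair projection that also binds the transcription factor Myc, had the smallest value of the list, 0.67 ± 0.17 (adjusted p = 0.130).

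The nexin link gave 2 other genes. drc2, a coiled-coil core subunit of the complex, rose by 1.51 ± 0.22 (adjusted p = 0.0381), with signals of 9.11 and 9.17 in the morphants and 7.87 and 7.38 in the controls. A second drc2 probe set had 0.89 ± 0.44 (adjusted p = 0.384) and its groups overlapped, at 9.26 and 8.33 in the morphants and 8.39 and 7.42 in the controls. ccdc39, part of the ruler that sets the spacing of spokes and nexin links along the doublet, had 1.18 ± 0.21 and did not pass (adjusted p = 0.0647).

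**Figure D3:**
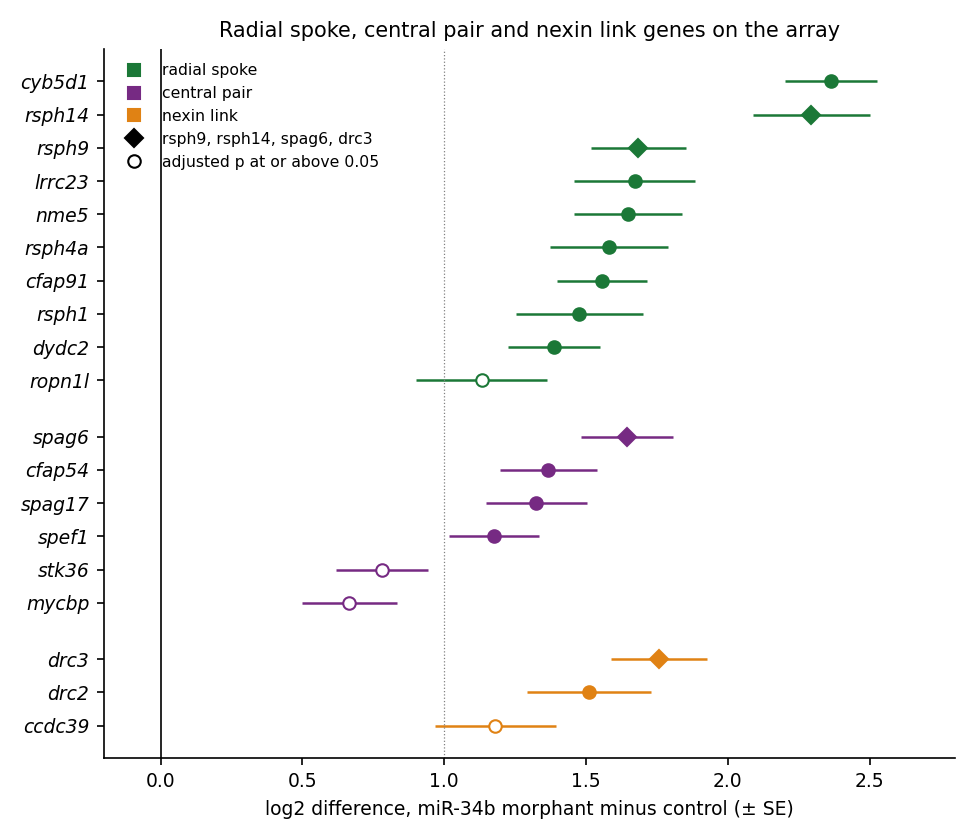
Log2 difference (miR-34b morphant minus control, ± SE, 2 arrays per group) of the 19 genes with a probe set, 1 probe set per gene, grouped as radial spoke (green), central pair (purple) and nexin link (orange). Diamonds are rsph9, rsph14, spag6 and drc3, open circles are the 4 genes with adjusted p at or above 0.05 (ropn1l, stk36, mycbp and ccdc39), the dotted line marks a 2-fold difference, and the values run from 0.67 for mycbp to 2.37 for cyb5d1.

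The calls depended on having all 4 arrays and on the filter on dim probe sets, over the whole table as well as in this list. Without the filter, 0 of the 15502 probe sets were called higher and 0 lower, against 290 higher and 14 lower with it. With any 1 array left out, the calls over the whole table fell too. Of the 19 genes, 0 passed without morphant replicate 1, 0 without morphant replicate 2 and 0 without the filter, while cyb5d1 and rsph14 passed without control replicate 1 and cyb5d1 alone without control replicate 2. At unadjusted p under 0.05 all 19 passed in those fits that called 0. In each of the 5 fits all 19 differences stayed above 0, and the list's median was 1.40 to 1.55.

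Other lists of cilium genes had medians of 1.32 to 1.44. Of 22 dynein arm and assembly genes with a probe set, 20 passed the filter on dim probe sets. Among these 20, 13 rose and 0 fell, with a median log2 difference of 1.32 (1.23 without the filter). Of 17 microtubule inner protein and tektin genes, 11 rose and 0 fell, with a median of 1.44. Of 15 intraflagellar transport genes with a probe set, 14 passed the filter. Among these 14, 10 rose and 0 fell, with a median of 1.42 (1.40 without the filter). At unadjusted p under 0.05 the counts were 18 higher and 0 lower, 16 and 1, and 14 and 0, in the same order. With 1 array left out, 0 to 1 dynein, 0 to 6 inner protein and tektin and 0 to 1 transport genes were called higher, and 0 in each list without the filter on dim probe sets. No test between the lists was made. The spoke, central pair and nexin link genes ran from 0.67 to 2.37, and the dynein arm genes from −0.36 to 2.13, the inner proteins and tektins from −0.98 to 2.97 and the transport genes from 1.04 to 2.23. The values below 0 were those of dnali1 (−0.36, adjusted p = 0.555), an inner arm light chain, spag1a (−0.07, adjusted p = 0.914), an assembly factor, and tekt3 (−0.98, adjusted p = 0.0928), a tektin, none of which passed.

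**Figure D4:**
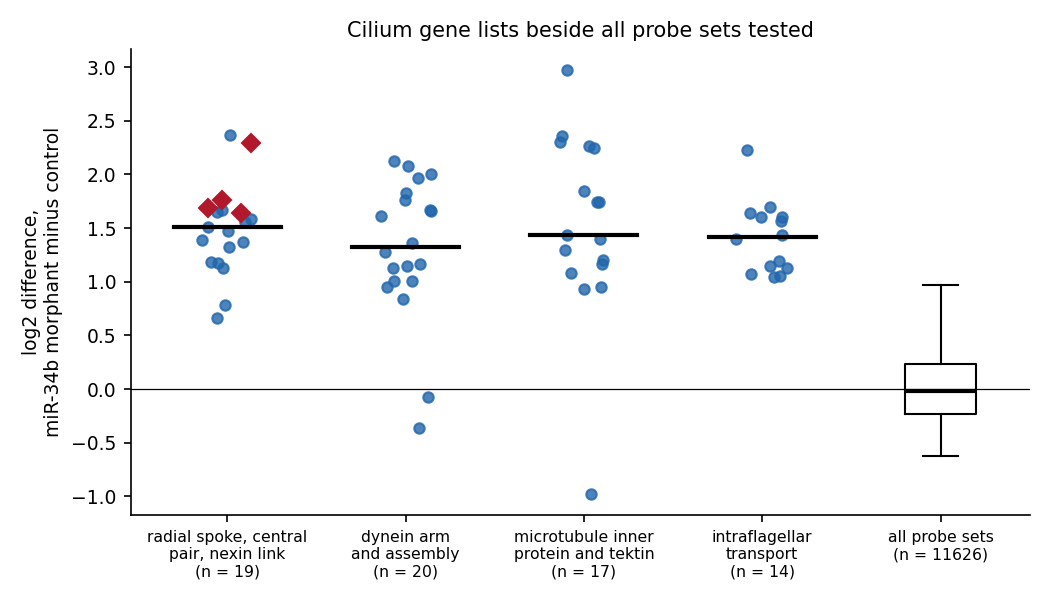
Log2 difference (miR-34b morphant minus control) of each gene in 4 lists of cilium genes, with the black bar at the list's median (1.51, 1.32, 1.44 and 1.42 from left to right) and rsph9, rsph14, spag6 and drc3 as red diamonds. The median of 1.51 includes these 4 genes, which were chosen with their differences known, and is 1.39 without them. The box on the right spans the quartiles of all 11626 probe sets tested, with whiskers from the 5th to the 95th percentile and its median at −0.017.

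The genes whose pattern over the 4 arrays was most like that of the 4 genes were listed, and their functions were not compared. Likeness was the Euclidean distance between log2 profiles, each centred on the gene's own mean over the arrays, and 7341 other named genes were searched. The nearest to the mean profile were ccdc77 (distance 0.089), arl6, a small GTPase of the Bardet-Biedl pathway (0.10), odad2, a dynein arm docking protein (0.11), cpb1, a carboxypeptidase of the exocrine pancreas (0.12), the kinase gene stk33 (0.13) and fsip1 (0.14). The median distance over all genes searched was 1.90, and the 4 genes themselves lay at 0.17 to 0.49. With only 4 arrays this measure mostly reflects the size of the difference between the groups. The signals of ccdc77 were 10.65 and 10.73 in the morphants and 8.90 and 8.88 in the controls. Those of cpb1 were 9.59 and 9.72 in the morphants and 7.72 and 7.74 in the controls. The search read each gene from its brightest probe set tested. As cpb1 has 2 probe sets, its match rests on 1 of them. Of the 6 endoderm markers tested, cpb1 among them, 3 lay above 0 and the median was −0.32.

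Taken singly, the nearest gene was rarres3l for rsph9 (0.035), lmnl3 for rsph14 (0.12), ccdc88c for spag6 (0.053) and farp2 for drc3 (0.042). Among the 4 genes themselves, rsph9 and spag6 were the closest pair, at 0.066, and drc3 lay 0.14 from rsph9 and 0.19 from spag6. rsph14 was 0.65 to 0.69 away from the other 3.

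**Figure D5:**
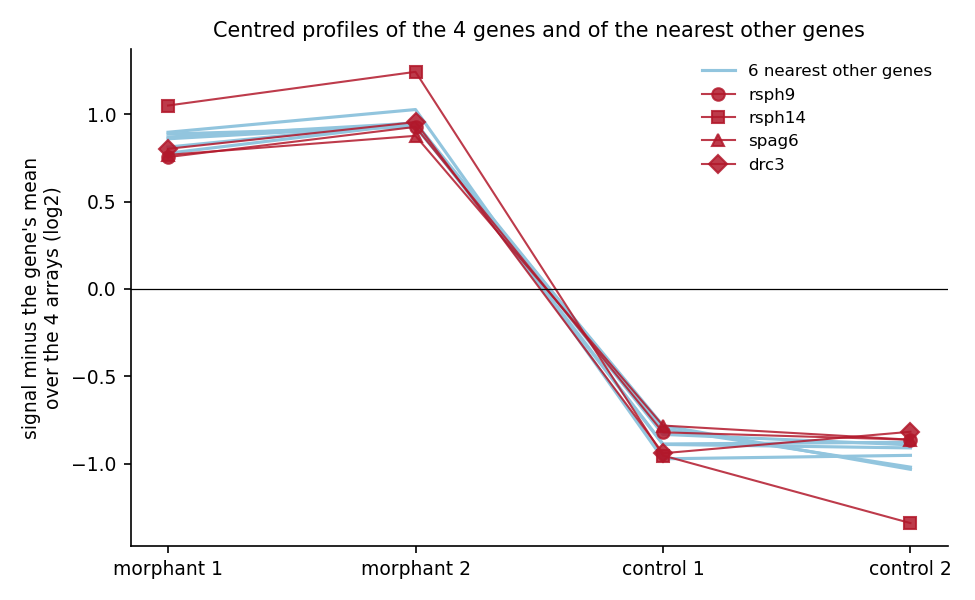
Log2 signal minus the gene's mean over the 4 arrays, for rsph9, rsph14, spag6 and drc3 (red) and for the 6 nearest other genes (blue: ccdc77, arl6, odad2, cpb1, stk33 and fsip1); lines join the values of 1 gene and the order of arrays within a group has no meaning. The profiles of rsph9, spag6 and drc3 nearly coincide with the blue ones, and rsph14 lies above the blue profiles on both morphant arrays and below them on control 2.

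The 4 genes lie on 4 different chromosomes in the RefSeq assembly GRCz12tu, which was used for names and gene order only. Of the 8 protein-coding genes directly beside them, 3 had a probe set that was tested. mrps18a beside rsph9 had a log2 difference of −0.20 ± 0.16 (adjusted p = 0.589), bag4 beside rsph14 −0.12 ± 0.20 (adjusted p = 0.826) and commd3 beside spag6 0.23 ± 0.17 (adjusted p = 0.542). For commd3 this was the brighter of the 2 probe sets tested. None of the 3 passed limma's test. The members were chosen with their large differences known, so smaller differences beside them were likely in advance and nothing is read from them.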

How the data were processed

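The authors deposited log2 signals per probe set from 4 one-colour Affymetrix arrays. The submitters' processing notes name MAS5, with no version. With the top and bottom 2% trimmed, every array had a linear mean of 500.1, so the deposited values share a scale. Detection calls were not used here, and the number of arrays limits the precision.

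From these values, limma 3.58.1 in R 4.3.3 fitted 1 term for the group to the 11626 probe sets left after removing 115 controls and the lowest 25% by mean, with Benjamini-Hochberg adjustment at 0.05. The fit was tested on simulated data. Genes came from the platform's annotation, updated through RefSeq, and each list gene is read from its brightest probe set. The naming rule takes all members, the spoke, central pair and nexin link genes past the threshold and up to 10 others of that list, and the nearest profiles. Markers and chromosomal neighbours are named as such, and dnali1, spag1a and tekt3 were named after their values were seen. The members and lists were chosen with earlier results of these data known. Alternatives covered the filter, scaling, pseudocount, variance prior, replicate block and each array left out.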

Additional observations from a re-analysis of the deposited data

How the results depend on the processing

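The log2 differences of the 4 genes stayed at 1.60 to 1.77 for rsph9, 2.10 to 2.49 for rsph14, 1.57 to 1.70 for spag6 and 1.68 to 1.83 for drc3 over 13 alternatives. The counts of calls moved. With no filter on dim probe sets limma called 0 higher and 0 lower (1380 and 647 at unadjusted p under 0.05), hence 0 of the 4 genes and 0 in each list. Leaving out 1 array gave 0 to 53 higher and 0 to 7 lower, 0 to 1 of the 4 genes, 0 to 2 spoke, central pair and nexin link genes (median 1.40 to 1.55), 0 to 1 dynein genes (median 1.18 to 1.48), 0 to 6 inner protein genes (1.43 to 1.58) and 0 to 1 transport genes (1.22 to 1.5). At unadjusted p under 0.05 the fit without morphant replicate 1 had 1089 higher and 828 lower, and that without morphant replicate 2 had 1276 and 727. An intensity trend gave 483 higher and 103 lower. The lower count was 63 with the lowest 50% left out, 34 with a pseudocount of 16, 8 under quantile and 7 under cyclic loess scaling, against 14. The median of the spoke, central pair and nexin link genes was 1.56 with the lowest 50% left out, 1.44 under median centring, 1.46 with the pseudocount and 1.39 without the 4 genes. The inner protein median was 1.59 with the lowest 50% left out, and the transport median 1.27 with the pseudocount. Quantile scaling called 6 transport genes. With the replicate number as a block, limma called 196 higher and 11 lower, 4 of the 4 genes, 10 of the 19 list genes and 6 transport genes. The labels do not say that the numbers mark shared batches, and the deviations of same-numbered arrays from their group means correlated at r = 0.021 across probe sets. The cause of these moves was not tested. With 2 arrays against 2, an exact two-sided permutation test of 1 gene cannot go below p = 0.333.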
